A study of Mus musculus with 12 samples.

Results

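The early genes described here are 10 transcription regulators chosen by name: the EGR genes *Egr1*, *Egr2* and *Egr3*, the nuclear receptor *Nr4a1*, the KLF genes *Klf2*, *Klf4* and *Klf6*, the IER genes *Ier2* and *Ier5*, and *Myc*. All 10 of the 10 had a row in the table of 13232 genes. RNA was sequenced from macrophages that wild-type C57B6/J mice gave as bone marrow. The cells were grown with 20 ng/ml of M-CSF and 10% fetal bovine serum (serum-free from day 4). They were kept for 1 h at 1% oxygen on day 7. One group of 3 libraries came from mice on a normal diet (ND) and the other 3 from mice on a high-fat diet (HFD). Both groups thus share strain, genotype, growth factor and low oxygen, and differ by the diet of the donor mouse. Diet length, age and sex of the mice are not given in the sources used here, and nothing says that libraries of a diet came from separate mice, so the spread between them may be technical. The 6 normal-oxygen libraries that the labels also describe were not analysed here, so no level below can be read as a response to hypoxia.

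Immediate early genes are transcribed within minutes of a stimulus without new protein synthesis, and most of their RNAs are short-lived. Growth factors such as M-CSF reach them through the ERK kinases, which activate serum response factor (SRF) and its ELK partners at CArG boxes in the promoter. EGR and KLF proteins are zinc finger factors that bind GC-rich DNA, NR4A1 is an orphan nuclear receptor, and MYC pairs with MAX to drive growth genes. In macrophages EGR2, KLF2, KLF4 and NR4A1 are known as factors that shape or restrain activation.

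Promoter sequences were in the RefSeq promoter table (GRCm38.p6) for 6 of the 10 members: *Egr2*, *Klf2*, *Klf4*, *Klf6*, *Ier5* and *Nr4a1*. Each window runs from 250 bases before to 50 after a start, and *Egr2* has 5 such windows. A CArG box, the SRF site, was found on either strand in 1 of the 6 members, *Egr2*, against 1.81% of the 27025 genes in the promoter table, a gene being counted if any of its windows held the box (1.63% of 32851 windows). The other 5 members have 1 window each, and of the 130 genes with at least 5 windows, 8.46% held the box. The stretch below is shown because *Egr2* had the largest diet difference of the 10 genes over the 6 libraries. It covers the 250 bases before 1 *Egr2* start, chr10:67537619-67537868 on the plus strand, lies outside annotated exons in GENCODE M21, and has the CArG box in capitals.
*Egr2*: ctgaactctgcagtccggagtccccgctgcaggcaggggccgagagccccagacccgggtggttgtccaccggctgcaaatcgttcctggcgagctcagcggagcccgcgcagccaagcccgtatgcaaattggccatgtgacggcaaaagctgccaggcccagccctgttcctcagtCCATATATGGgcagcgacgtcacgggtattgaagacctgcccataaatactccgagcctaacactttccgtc

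The box begins 72 bases before that start. A match to the letters of an EGR site, GCGNGGGCG on either strand, was found for 3 of the 6 members, *Klf2*, *Klf4* and *Nr4a1*, against 6.27% of genes (5.55% of windows). These windows are rich in G and C (69.3%, 74.3% and 72.3%, against a median of 52.7%), and of the 3148 windows with at least 70% G and C, 28.7% held the site. The stretches are shown because they are sites of the kind EGR proteins bind in promoters of other members, with the site in capitals: *Klf2* at chr8:72318851-72318883 (plus strand), *Klf4* at chr4:55532649-55532681 (minus strand) and *Nr4a1* at chr15:101266774-101266806 (plus strand).
*Klf2*: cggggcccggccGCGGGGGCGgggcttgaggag
*Klf4*: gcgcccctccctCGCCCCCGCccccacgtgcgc
*Nr4a1*: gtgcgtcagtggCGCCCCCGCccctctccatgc

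Further motifs were searched on both strands, and matches to shorter ones can lie inside longer ones. The E-box CACGTG, which MYC with MAX can bind, was found for 3 of the 6 members (*Egr2*, *Klf4* and *Klf6*) against 8.09% of genes, or 24.6% of genes with at least 5 windows, as *Egr2* has. The hypoxia response core ACGTG, which lies within that E-box, was found for the same 3 members against 21.8% of genes, or 55.4% of those with at least 5 windows. The KLF letters GGGNGTG were found for *Nr4a1* alone, 32 bases after its start, against 31.9% of genes, and the cAMP response element TGACGTCA for 0 of the 6 against 2.03%. All are matches of letters, and no binding was measured.

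The members are also compact genes. In GENCODE M21 (GRCm38), 9 of the 10 span less than the median gene of the table (18324.5 bases, over 12936 matched genes) and 9 of the 10 have fewer exons than its median of 6. *Ier2* (chr8:84661331-84662852, minus strand) and *Ier5* (chr1:155096361-155099636, minus strand) are single exons of 1522 and 3276 bases. *Egr1* (chr18:34859823-34864984), *Egr2* (chr10:67535475-67542188) and *Egr3* (chr14:70077203-70082614) each have 2 exons on the plus strand. *Nr4a1*, at 20527 bases and 8 exons, is the exception on both counts. No other annotated gene overlaps any of the 10.

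Estimated depth was 19046400 to 22805200 reads in ND and 23017000 to 24491500 in HFD, so every HFD library was the deeper. ND replicate 3 was the shallowest. On the first principal component (43.3% of the variance over 10794 genes with a mean of at least 100) it lay at 3.43, nearer to the HFD libraries (1.33 to 11.4) than to ND replicates 1 and 2 (-14.0 and -13.5). The EGR results are given with and without it. Of the macrophage markers, 10 of 10 had a row, and their summed level, most of it *Lyz2*, overlapped between diets (357194 to 405840 in ND, 353976 to 414945 in HFD). Of the 10, 5 had the higher and 5 the lower HFD estimate, and 0 passed the adjusted threshold. The diets did not overlap for 2 of the 10, against 14.5% of all genes. *Adgre1* was higher in every HFD library (log2 fold change 0.16, limma adjusted p = 0.520). *Cd14* was lower in every one (4006, 4019 and 3969 in ND against 3678, 2981 and 3188 in HFD, -0.29, 0.281). Of the neutrophil markers 6 of 10 had a row, summing to 1712 to 2455 in ND and 2109 to 3430 in HFD. All 6 had the higher HFD estimate (median log2 fold change 0.30) and 0 passed the adjusted threshold. Of these 6, *Mmp8*, a neutrophil collagenase, alone did not overlap between diets (443, 463 and 452 in ND against 707, 1032 and 834 in HFD, log2 fold change 0.90, limma adjusted p = 0.113). Of the stromal markers 3 of 6 (*Col1a1*, *Col1a2* and *Col3a1*) had a row, summing to 177 to 549 in ND and 51.8 to 337 in HFD. All 3 had the lower HFD estimate (log2 fold change -1.45 to -1.04), 0 passed the adjusted threshold and each overlapped between diets. Of 5 further lists, for B cells, T and NK cells, dendritic cells, mast cells and basophils, and erythroid cells, 0 of 6 markers each had a row. The part of neutrophil or stromal RNA in the diet differences below was not tested.

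Values of a diet are listed below in the order of replicates 1 to 3.

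The comparison of diets asks whether early gene RNA differs in macrophages from HFD mice at low oxygen. Over the 6 libraries the 3 largest differences were in the EGR genes, and they ran in opposite directions: *Egr2* was 1.55 times as high in HFD as in ND, while *Egr1* was at 0.758 and *Egr3* at 0.647 of the ND mean. *Egr2* and *Egr3* were also the largest in all 15 alternative fits, while *Nr4a1* exceeded *Egr1* in 4 of them (with limma's array weights, which give noisier libraries less influence, and without ND replicate 1, ND replicate 3 or HFD replicate 1). None of the 10 genes passed a limma adjusted p of 0.05, and neither did any other gene (0.0% of 13232). At an unadjusted p under 0.05 there were 3 of 10 members, *Egr2* higher and *Egr1* and *Egr3* lower, against 10.6% of all genes (5.4% higher and 5.18% lower). The diets did not overlap for 3 of 10 members, against 14.5% of all genes (7.44% higher and 7.07% lower): *Egr1* and *Egr3* were lower in every HFD library and *Klf6* was higher. With scaling to the column total this held for *Egr1* and *Egr3*, and after quantile normalization for *Egr1* alone. The median log2 fold change of the 10 was -0.064, beside -0.0034 over all genes, with 4 genes higher and 6 lower in HFD. The median size of the difference, regardless of sign, was 0.18 among the members and 0.092 over all genes. In these cultures fewer cells expressing a gene and less RNA per cell cannot be told apart.

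**Figure D1:**
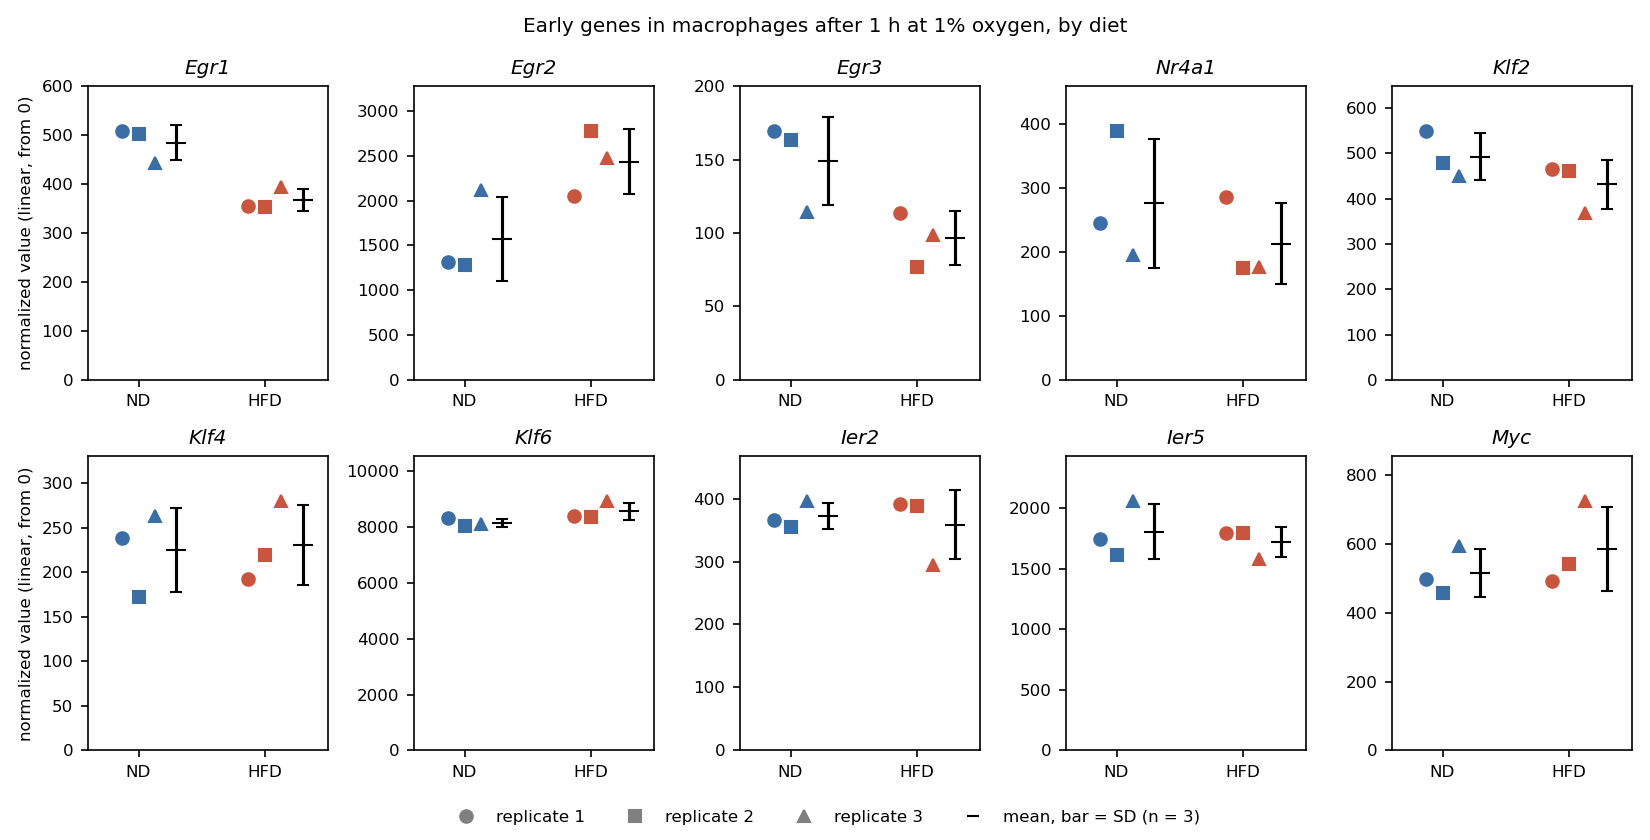
Normalized value (y axis, linear, from 0) of each of the 10 early genes in the 3 ND and 3 HFD libraries kept at 1% oxygen for 1 h; marker shapes give the replicate number, and the horizontal tick with its bar is the mean with SD (n = 3). The HFD points of *Egr1* (354 to 393) all lie below the ND points (444 to 509), and for *Egr2* ND replicate 3 lies among the HFD points.

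*Egr1* is the founding EGR gene, an activator induced by growth factors and stress. Its normalized value was 509, 502 and 444 in the ND libraries and 355, 354 and 393 in the HFD libraries. The lowest ND library stood above the highest HFD library by more than the range within HFD. The log2 fold change was -0.40 (95% interval -0.60 to -0.20, limma adjusted p = 0.217). By p, *Egr1* ranked 78th, *Egr2* 215th and *Egr3* 416th of the 13232 genes. It kept its direction without any 1 library, from -0.46 to -0.36, and came under the threshold once ND replicate 3 was left out (-0.46, limma adjusted p = 0.0417).

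*Egr2*, known as Krox20 in myelin and nerve development, is in macrophages a factor linked to M-CSF and interleukin-4. Its normalized value was 1316, 1280 and 2116 in the ND libraries and 2052, 2778 and 2475 in the HFD libraries. ND replicates 1 and 2 lay well below every HFD library, while ND replicate 3 lay just above HFD replicate 1, so the diets overlapped through that library. The means were 1571 ± 473 in ND and 2435 ± 365 in HFD (SD, n = 3). The log2 fold change was 0.66 (95% interval 0.26 to 1.07, limma adjusted p = 0.284). With 1 library left out it ran from 0.53 to 0.90. It passed the threshold only without ND replicate 3 (0.90, limma adjusted p = 0.0127), the ND library nearest to the HFD values.

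*Egr3*, a close relative of both, was the scarcest member. Its normalized value was 170, 163 and 115 in the ND libraries and 114, 77.2 and 99.0 in the HFD libraries. ND replicate 3 and HFD replicate 1 differed by about the value of 1 read, so the absence of overlap rests on that margin. Counting error alone was up to 11.2% of a value (80 reads in the lowest library). The log2 fold change was -0.62 (95% interval -1.05 to -0.18, limma adjusted p = 0.319). With 1 library left out it ran from -0.80, without ND replicate 3, to -0.47, without HFD replicate 2. It did not pass in either case (limma adjusted p = 0.0648 and 0.903).

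**Figure D2:**
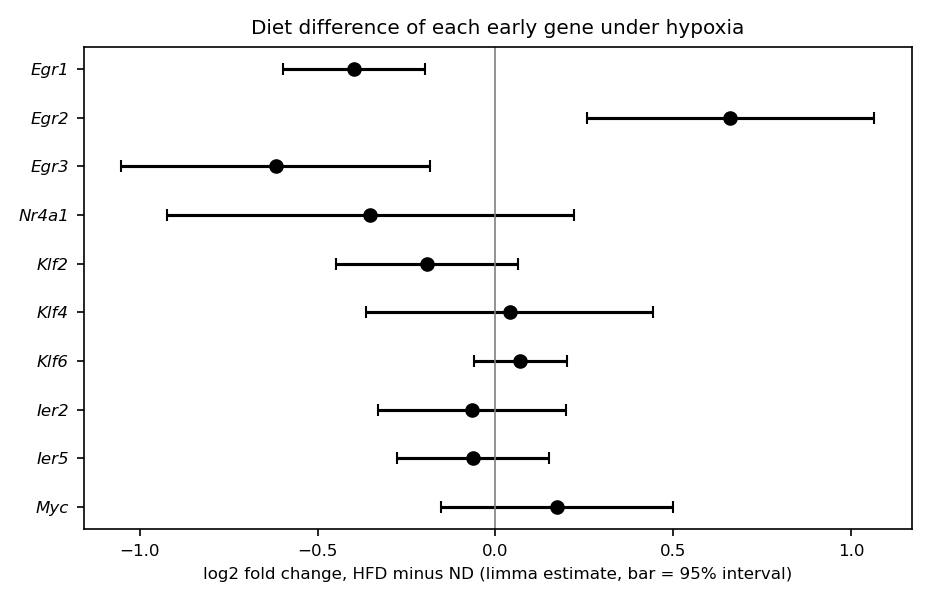
Log2 fold change of each early gene, HFD minus ND, on the log2(value + 1) scale (x axis), as limma's estimate (point) with its 95% interval (bar) from 3 libraries per diet. The intervals of *Egr1*, *Egr2* and *Egr3* do not reach 0, and those of the other 7 genes do.

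Because *Egr1* and *Egr2* differed in opposite directions, their ratio within a library was formed. Dividing a library by a common factor cannot move this ratio, though quantile normalization can. The ratio was chosen after the values were seen, so its difference between diets largely restates those that prompted it. Its p-values are no independent test, and their adjustment leaves out other pairs of members. It is compared between libraries only, since it is not corrected for gene length. *Egr2* over *Egr1* was 2.59, 2.55 and 4.77 in the ND libraries and 5.77, 7.84 and 6.30 in the HFD libraries. Every HFD library had the higher ratio, with ND replicate 3 nearest to them. The mean log2 difference was 1.06 (exact two-sided permutation p = 0.1, the smallest that 3 against 3 allows, and 0.2 adjusted over 3 ratios), and 1.36 without ND replicate 3. *Egr3* over *Egr1* was 0.333, 0.326 and 0.258 in ND and 0.320, 0.218 and 0.252 in HFD. That ratio overlapped between diets (log2 difference -0.22, exact permutation p = 0.2, adjusted 0.2), and was -0.34 without ND replicate 3. *Egr2* over *Egr3* was 7.76, 7.84 and 18.5 in ND and 18.1, 36.0 and 25.01 in HFD. It overlapped only through ND replicate 3 and HFD replicate 1 (log2 difference 1.29, exact permutation p = 0.2, adjusted 0.2), and was 1.70 without the former.

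**Figure D3:**
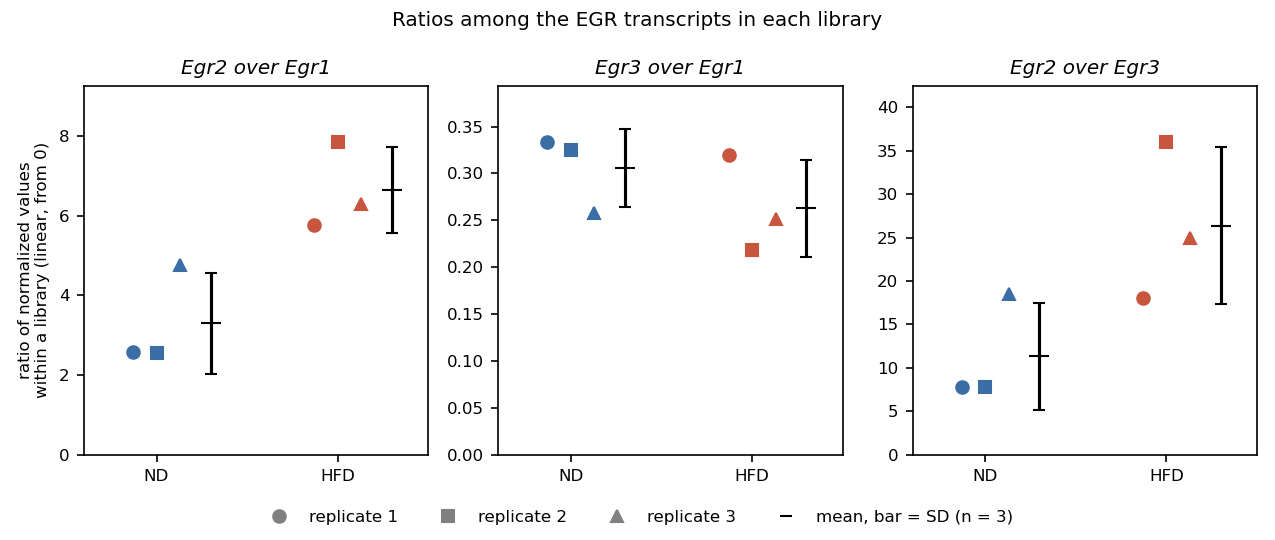
Ratio of normalized values of pairs of EGR genes within each library (y axes, linear, from 0) for 3 ND and 3 HFD libraries; ticks with bars are means with SD (n = 3). *Egr2* over *Egr1* lies between 2.55 and 4.77 in ND and between 5.77 and 7.84 in HFD, without overlap.

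*Nr4a1* (Nur77) is an early-induced receptor needed for patrolling monocytes. Its normalized value was 244, 389 and 195 in the ND libraries and 286, 176 and 177 in the HFD libraries. HFD replicate 1 lay above ND replicates 1 and 3, so the diets overlapped. The log2 fold change was -0.35 with a wide interval, -0.92 to 0.22 (limma adjusted p = 0.674). It was -0.075 without ND replicate 2, which held the highest value, -0.58 without HFD replicate 1 and -0.57 without ND replicate 3, so its size depended on single libraries.

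None of the 3 KLF genes among the members had an interval that left out 0. *Klf2*, a factor that quiets inflammatory genes, had a normalized value of 550, 478 and 450 in the ND libraries and 466, 460 and 369 in the HFD libraries. HFD replicates 1 and 2 lay inside the ND range and HFD replicate 3 below it (log2 fold change -0.19, 95% interval -0.45 to 0.063, limma adjusted p = 0.603). Without HFD replicate 3 the value was -0.084, and without ND replicate 1 it was -0.11.

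*Klf4*, a monocyte differentiation factor, had a normalized value of 238, 172 and 263 in the ND libraries and 192, 219 and 279 in the HFD libraries. The libraries of the diets were intermixed, and the log2 fold change was 0.040 (95% interval -0.36 to 0.44, limma adjusted p = 0.959). *Klf6*, by far the most abundant member, had a normalized value of 8298, 8037 and 8083 in the ND libraries and 8387, 8350 and 8911 in the HFD libraries. Its HFD values all lay above its ND values by a small margin, which was lost under both other scalings (log2 fold change 0.070, 95% interval -0.061 to 0.20, limma adjusted p = 0.718). Its interval is the narrowest of the 10 and reaches up to 1.15-fold. The value was 0.024 after quantile normalization, 0.040 with array weights and 0.040 without HFD replicate 3.

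The IER means lay close together in both diets. *Ier2* codes for a small nuclear regulator, and its normalized value was 366, 355 and 396 in the ND libraries and 391, 389 and 295 in the HFD libraries. *Ier5*, a partner of protein phosphatase 2A in heat shock factor control, was at 1746, 1616 and 2058 in ND and at 1793, 1800 and 1579 in HFD. For both genes HFD replicate 3 was the lowest of the 6 libraries and ND replicate 3 the highest. The log2 fold changes were -0.066 (95% interval -0.33 to 0.20) for *Ier2* and -0.063 (-0.28 to 0.15) for *Ier5*, with limma adjusted p-values of 0.887 and 0.859. Without HFD replicate 3, *Ier2* stood at 0.068.

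*Myc*, the growth regulator, had a normalized value of 497, 458 and 593 in the ND libraries and 492, 542 and 724 in the HFD libraries. Replicate 3 was the highest library of each diet, and the diets overlapped (log2 fold change 0.17, 95% interval -0.15 to 0.50, limma adjusted p = 0.718). Without HFD replicate 3 the difference was 0.011, and the 5 other such values ran from 0.091 to 0.29. Of 20 MYC targets in ribosome and polyamine synthesis, 0 passed the adjusted threshold and 0 an unadjusted p under 0.05, against 10.6% of all genes. Of the 20, 13 were higher and 7 lower in HFD, and their median was 0.10 on the log2 scale. The smallest p-values were those of *Nolc1* (0.25, limma adjusted p = 0.492) and *Bop1* (0.23, 0.529), both ribosome assembly factors, and of *Odc1* (0.24, 0.551), which starts polyamine synthesis. Without HFD replicate 3 *Nolc1* stood at 0.13 and *Odc1* at 0.13, and *Odc1* stood at 0.12 without ND replicate 1. *Bop1* was at 0.35 without ND replicate 3 and passed with array weights (0.35, limma adjusted p = 0.0343).

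Levels of different genes were compared per kilobase of exonic sequence in GENCODE M21. *Klf6* stood first at 1900 per kilobase (mean of 6 libraries), above *Egr2* in every library. *Egr2* (589) and *Ier5* (539) followed and changed places with diet: *Egr2* stood at 462 ± 139 in ND and 717 ± 107 in HFD, and *Ier5* at 552 ± 69.3 and 526 ± 38.3 (SD, n = 3). *Egr2* exceeded *Ier5* in 3 of the 6 libraries, all 3 of them HFD, and the pair nearly tied in ND replicate 3 (623 and 628). Without that library the ND means were 382 for *Egr2* and 513 for *Ier5*. *Klf2* (250), *Ier2* (240) and *Myc* (203) formed the next group. *Klf2* exceeded *Ier2* in 3 of 6 libraries and *Ier2* exceeded *Myc* in 5 of 6, and the ranges of these neighbours overlapped. *Egr1* (95.1), *Klf4* (74.6) and *Nr4a1* (69.7) lay lower, below the median gene of the table at 124 per kilobase. Among these, *Egr1* exceeded *Klf4* in 5 and *Klf4* exceeded *Nr4a1* in 4 of 6 libraries. *Egr3* was last at 27.9 per kilobase, below *Nr4a1* in every library.

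Of 27 other members of these families and their partners, 19 had a row, and 0 passed the adjusted threshold. At an unadjusted p under 0.05 there were 2 higher and 0 lower, *Klf9* and *Klf7*, or 10.5% of the 19, a share near the 10.6% of all genes. *Klf9*, a glucocorticoid-responsive repressor, was at 410, 419 and 530 in the ND libraries and at 584, 639 and 669 in the HFD libraries. Its diets did not overlap (log2 fold change 0.48, SE 0.11, limma adjusted p = 0.217), and it passed without ND replicate 3 (0.60, limma adjusted p = 0.0163) and with array weights (0.57, 0.00655). *Klf7* (0.24, limma adjusted p = 0.353) did not overlap either and passed with array weights (0.0439). *Klf10*, a TGF-beta-inducible factor, overlapped (0.26, limma adjusted p = 0.479), and stood at 0.15 without HFD replicate 3 and 0.40 without HFD replicate 1. The list's median was 0.033. *Nr4a2*, *Nr4a3* and *Egr4* were among the 8 with no row.

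The route from the M-CSF receptor to these genes had the narrowest range of the 4 lists. All 27 of its 27 listed genes had a row, 0 passed the adjusted threshold and 0 an unadjusted p under 0.05, against 10.6% of all genes. Log2 fold changes ran from -0.19 to 0.16 (median 0.047). The smallest p-values belonged to *Mef2c*, a factor that binds early gene promoters (-0.19, limma adjusted p = 0.503), to *Mrtfb*, an SRF cofactor (0.16, 0.535), and to *Rps6ka3*, an ERK-activated kinase (0.15, 0.566). Without HFD replicate 3 *Mrtfb* stood at 0.081 and *Rps6ka3* at 0.068, and without HFD replicate 1 *Rps6ka3* stood at 0.22. *Mef2c* was at -0.11 without ND replicate 2 and passed with array weights (-0.28, limma adjusted p = 0.0343). These are RNA levels and do not measure kinase activity.

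Of 29 other immediate early genes 27 had a row, and 0 passed the adjusted threshold. Among them 10 had an unadjusted p under 0.05, 7 higher and 3 lower in HFD, or 37.0% beside the 10.6% of all genes. The diets did not overlap for 12 of the 27, against 14.5% of all genes. *Sgk1*, a kinase induced by serum and glucocorticoid, averaged 593 ± 30.6 across ND libraries and 771 ± 69.8 across HFD libraries (SD, n = 3, log2 fold change 0.38, limma adjusted p = 0.220). *Fos* (0.42, limma adjusted p = 0.260) was higher and *Jun* (-0.21, 0.284) lower, the partners of AP-1. With array weights all 3 passed (limma adjusted p = 0.0121 for *Sgk1*, 0.0149 for *Fos* and 0.0493 for *Jun*), as did 8.56% of all genes. Both directions thus occurred in this list (median 0.14) as among the 10 genes (median -0.064).

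**Figure D4:**
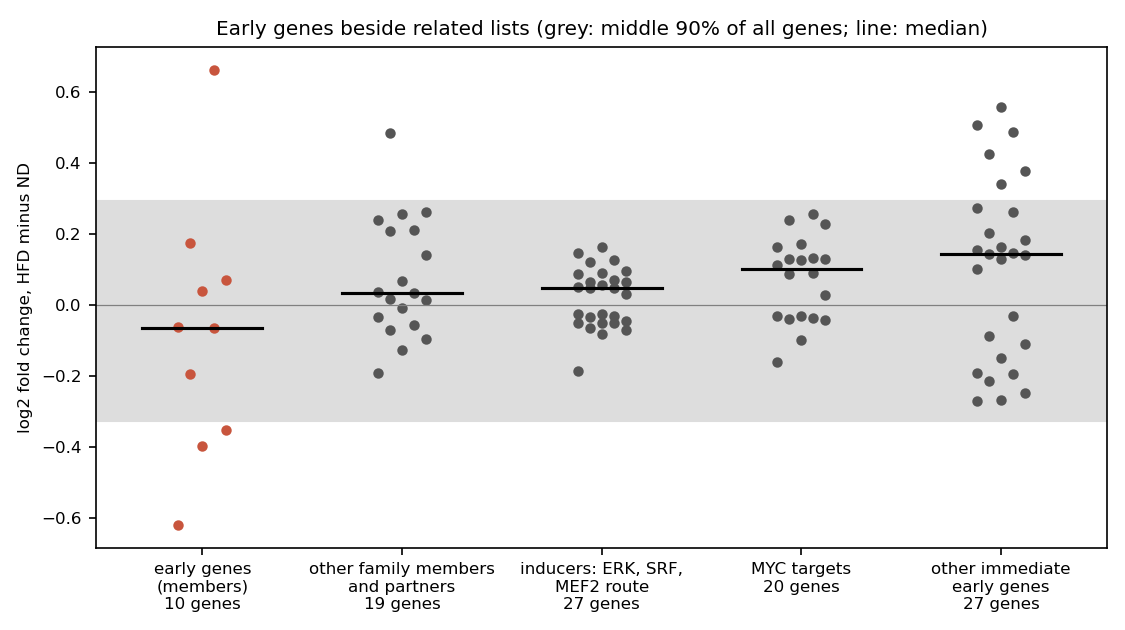
Log2 fold change, HFD minus ND (y axis), of the 10 early genes and of 4 related lists; points are genes, lines are medians, and the grey band holds the middle 90% of all genes. *Egr2* (0.66) lies farthest above and *Egr3* (-0.62) farthest below the band, and the inducers lie between -0.19 and 0.16.

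The members that varied most over the 6 libraries were *Egr2*, *Nr4a1* and *Egr3* (SD of log2 value 0.47, 0.45 and 0.43, beside 0.13 for the median gene). The genes most like each were taken as those with the smallest root mean square difference of centred log2 values over the 6 libraries. For *Egr2* these were *Alas1*, the first enzyme of haem synthesis (0.083), *Col18a1* (0.086) and the ubiquitin ligase gene *Rnf128* (0.090). *Alas1* was at 2626, 2849 and 4119 in the ND libraries and at 4153, 5234 and 4646 in the HFD libraries. As with *Egr2*, ND replicate 3 stood with the HFD libraries and HFD replicate 2 was the highest. For *Egr3* they were *Gm20696* (0.066), *Pdzk1ip1* (0.068) and the interferon-inducible *Mndal* (0.078). *Mndal* was at 2094, 1955 and 1521 in ND and 1450, 1102 and 1267 in HFD, which is the order of libraries seen for *Egr3*. For *Nr4a1* they were *Coro2b* (0.10), *Gm13391* (0.11) and *Gm13369* (0.12), all with ND replicate 2 highest. These likenesses describe 6 libraries and were drawn from 13232 genes.

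The log2 value of ND replicate 3 lay nearer to the HFD mean than to the mean of the other 2 ND libraries for 7 of 10 members, a share near the 60.2% of all genes. *Ier5* is among the 7, although its ND replicate 3 value was the highest of the 6 libraries. Without ND replicate 3, 2 of 10 members passed the adjusted threshold, *Egr1* and *Egr2*, beside 1.76% of all genes (233). For *Egr1*, *Egr2* and *Egr3* it was the ND library nearest to the HFD values, so leaving it out must widen their differences. With array weights (0.441 for ND replicate 3 and 3.09 for HFD replicate 2), 3 of 10 members passed, beside 8.56% of all genes (1133). These were *Egr1* (-0.47, limma adjusted p = 0.00796), *Egr2* (0.90, 0.00680) and *Egr3* (-0.89, 0.0135). HFD replicate 2, with the largest weight, held the HFD value farthest from ND for all 3. Passing in these fits is therefore no separate support for the differences. No member passed when any other library was left out.

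**Figure D5:**
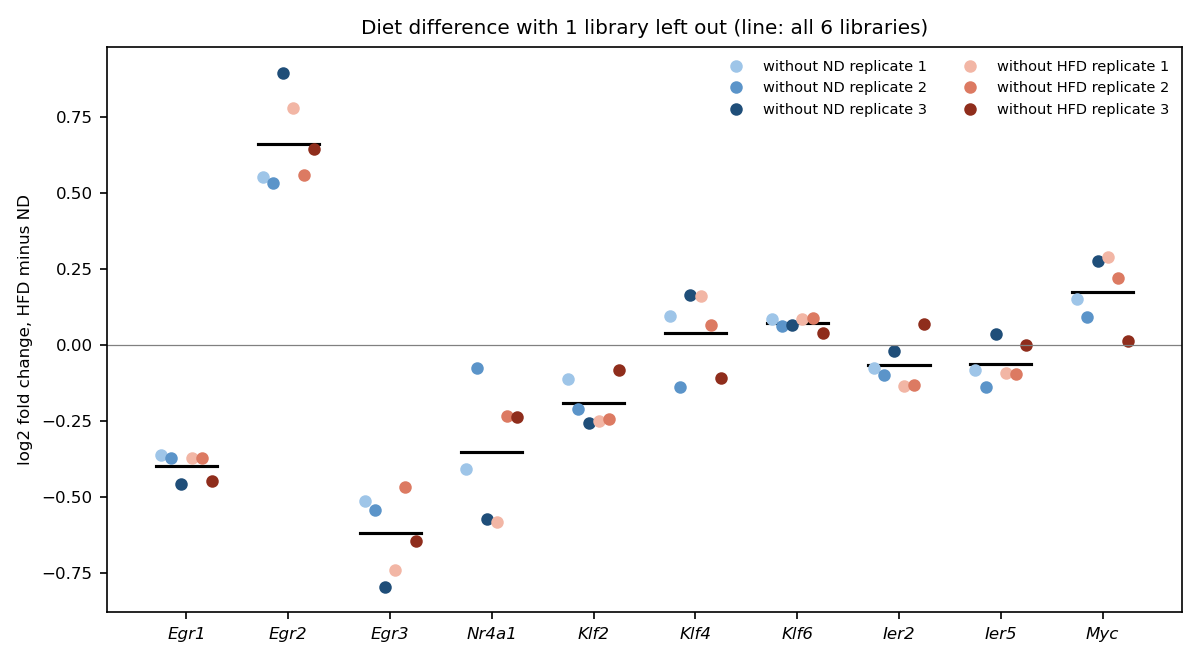
Log2 fold change of each early gene, HFD minus ND (y axis), with all 6 libraries (line) and with 1 library left out (points, coloured by the library). *Egr1*, *Egr2* and *Egr3* keep their sides of 0 in all 6 cases, and *Klf4*, *Ier2* and *Ier5* take either side.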

How the data were processed

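Libraries were stranded total RNA libraries depleted of ribosomal RNA, made from 100 ng of RNA and read as single ends of 75 bases, per the labels' protocols. STAR, Partek and mm10 are named without role in the submitters' processing notes. The deposited values are a signal: estimated gene counts that the authors divided by a factor per library, as read from the values, since a common step per library turns 57.1% to 58.4% of the values from 5 to 1000 into whole numbers (tolerance 0.02), and other steps about 3.96%. Too many values are fractional to recover counts, so no count test was run. Dividing column sums by the step gave the depths, and intervals from them cover counting error only. NC in a column's header was read as the normal diet, and its middle number as the replicate. Counting strand, annotation and filters are not given in the sources used here.

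The 3 HFD libraries were set against the 3 ND libraries by limma 3.58.1 (R 4.3.3, mean-variance trend, two-sided) on log2(value + 1), with Benjamini-Hochberg adjustment over all 13232 genes and a threshold of 0.05. Fold changes on this scale understate changes of low genes. The fit was tested on simulated data with known changes. The members, lists and motifs were chosen with earlier results of these data known. All members are named with values, and of each list the 3 genes with the smallest p. Alternatives covered the pseudocount, low-value filters, scaling, the variance trend, library weights, the replicate block and each library left out.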

Additional observations from a re-analysis of the deposited data

How the results depend on the processing

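The count of 0 genes past an adjusted p of 0.05 (1401 at an unadjusted p) became 1133 with array weights and ran from 0 to 233 when 1 library was left out. Deviations from the diet means correlated at -0.0086, -0.037 and -0.00069 between libraries sharing a number. With 3 libraries per diet these values do not decide whether the numbers pair libraries. The replicate block gave 31 genes, none of them a member, and moved no member across the threshold. The count of 0 members (3 at an unadjusted p) became 3 with array weights and ran from 0 to 2 when 1 library was left out. It was also 0 with both other pseudocounts, both filters, quantile normalization, scaling to the column total and no variance trend. The members' median (-0.064) ran from -0.12 to 0.0067 when 1 library was left out. The members without overlap fell from 3 to 1 after quantile normalization and to 2 with scaling to the column total. Signs turned for *Klf4* (-0.00215), *Ier2* (0.035) and *Ier5* (0.017) with array weights, for *Klf4* without ND replicate 2 (-0.14) or HFD replicate 3 (-0.11), for *Ier5* without ND replicate 3 (0.035) and for *Ier2* without HFD replicate 3 (0.068). With 1 library left out *Klf4* ran from -0.14 to 0.17, *Ier2* from -0.13 to 0.068 and *Ier5* from -0.14 to 0.035. Over the 10 members, 138 of 150 values had an unaltered sign and call, 5 newly passed and 7 changed sign. Over the 12 named genes of the lists, 172 of 180 values had an unaltered sign and call, and 8 newly passed, 7 of them with array weights (*Klf9*, *Klf7*, *Mef2c*, *Bop1*, *Sgk1*, *Fos* and *Jun*) and *Klf9* also without ND replicate 3. Adjusted p-values over the alternatives ran from 0.00796 to 0.862 for *Egr1*, 0.00680 to 0.882 for *Egr2*, 0.0135 to 0.928 for *Egr3*, and from 0.149 upward for the others. The causes were not tested. The 1 member with a CArG box was the same in the 250 bases before the start alone, where the KLF letters went from 1 member to 0 and the other motifs kept their counts. The ratios without ND replicate 3 were added after the data were seen. The edgeR quasi-likelihood test, planned for whole counts only, was not run. At *Egr3*, 80 to 170 reads a library limit what can be seen.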
